A study of Mus musculus with 8 samples.

Results

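The G1 cyclins and CDK inhibitors described here are 10 mouse genes chosen by name: the cyclins Ccnd1, Ccnd2, Ccnd3 and Ccne1, the CDK inhibitors Cdkn1a, Cdkn1b, Cdkn2a, Cdkn2b and Cdkn2c, and the retinoblastoma gene Rb1. They are 10 of the 20660 genes that a RefSeq accession names on the array. A probe belongs to a gene when its accession maps to that symbol, and each probe is shown apart. This gave 15 of the 55681 probes that are no controls: 1 each for Ccnd1, Ccnd2, Cdkn1b, Cdkn2c and Rb1, and 2 each for Ccnd3, Ccne1, Cdkn1a, Cdkn2a and Cdkn2b. All 15 passed the filter on dim probes, and no member spot was saturated.

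The RNA came from BMEL cells, a line of bipotential liver progenitors of the mouse embryo, and was read on 8 one-colour Agilent arrays of 1 slide. The groups differ by medium: 3 arrays are labelled CM, 2 DIFF and 3 NoRX. The title of the series asks how liver progenitors respond to medium conditioned by human amniotic epithelial cells. The labels give neither the composition of a medium nor the time in it, and they spell out none of the 3 abbreviations. All groups share 1 cell line, and the labels do not call replicates separate cultures, so p-values cover only the spread between arrays, which may be technical. In addition, 1 label numbers both DIFF arrays as replicate 1, although their titles number them 1 and 2.

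D-type cyclins link growth signals to the cell cycle: they bind CDK4 or CDK6, and the complex phosphorylates the Rb protein, which otherwise holds E2F transcription factors in check. Cyclin E then acts with CDK2 as cells enter S phase. The Cip/Kip inhibitors, Cdkn1a (p21) and Cdkn1b (p27), bind cyclin-CDK complexes, whereas the Ink4 inhibitors, Cdkn2a (p16), Cdkn2b (p15) and Cdkn2c (p18), bind CDK4 and CDK6. In liver, cyclin D1 is known as a driver of the cycle in regenerating hepatocytes, and Cdkn1a as a brake on it.

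Values below are scaled intensities, the processed signal of a probe after each array was brought to a common 75th percentile. Differences are log2 values ± SE. The adjusted p of each is limma's over all 30357 probes tested, with a threshold of 0.05. Of the 59305 spots other than controls, DIFF replicate 2 had 46.4% well above background and 1159 with uneven background, where the other 7 arrays had 50.8% to 53.5% and 3 to 90. The median SD of a probe was 0.08 in CM, 0.21 in DIFF and 0.09 in NoRX. The fit took 1 spread per probe for all groups. SEs and adjusted p of DIFF differences may therefore be too small, and those of CM against NoRX too large. Slide row 1 held CM replicate 1 and all NoRX arrays, and row 2 the other 4 arrays. No row holds both DIFF and NoRX, so a fit with the row as a block sets these groups against each other only through CM. Within row 1 CM is a single array, and so is DIFF where 1 of its arrays is left out: a lone array is then assumed to vary like the arrays of the other groups. Of 15 hepatoblast and liver progenitor markers, 15 were above background on every array except DIFF replicate 2, where Spp1 was not. In such bulk RNA, fewer cells that express a gene and less of its RNA per cell cannot be told apart.

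In CM, RNA of the D-type cyclins Ccnd1 and Ccnd2 was lower than in NoRX, and RNA of Cdkn1b, Cdkn2a, Cdkn2b and Rb1 was higher at every probe. Of the 15 member probes, 7 were higher, 3 lower and 5 did not pass. Among all 30357 probes 42.3% changed in that comparison, 20.8% higher and 21.5% lower. Of the 18406 RefSeq-matched probes, fitted alone, 51.6% changed. The median difference of the member probes was 0.13, beside -0.0093 for all probes, and their median absolute difference was 0.44, beside 0.31. The sign of that member median is not settled: it was -0.025 without NoRX replicate 3 and -0.042 with normexp on the median signal, another background correction. It was 0.033 without CM replicate 3, and 0.23, 0.20 and 0.21 without NoRX replicate 1, NoRX replicate 2 and CM replicate 2. The count of 3 lower probes was 5 without DIFF replicate 1 or without DIFF replicate 2, and 2 without NoRX replicate 1, NoRX replicate 3, CM replicate 2 or CM replicate 3.

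In DIFF, the same D-type cyclins were again lower than in NoRX and Cdkn1b was again higher, while Cdkn2a, Cdkn2b and 1 of the 2 Ccne1 probes were lower. Of the 15 probes, 4 were higher, 9 lower and 2 did not pass. Among all probes 32.8% changed, 10.1% higher and 22.8% lower, and 40.6% of the RefSeq-matched probes fitted alone. The member median was -0.74, beside -0.13 for all probes. Centring each array on its median moved these to -0.58 and 0.03, and the split of all probes to 3738 higher and 3611 lower. Without DIFF replicate 1 the medians were -0.86 for members and -0.27 for all probes, and without DIFF replicate 2 they were -0.51 and 0.0082. The 4 higher member probes became 2 without NoRX replicate 2, NoRX replicate 3 or DIFF replicate 1. Among all probes the lower count of 6916 became 12275 without DIFF replicate 1, and the higher count of 3055 became 5765 without DIFF replicate 2. This comparison and that of CM use the same NoRX arrays, so they are not independent of each other.

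Between DIFF and CM, the inhibitors Cdkn1b, Cdkn2a and Cdkn2b and Rb1 were lower in DIFF, and Ccnd3 was higher at both probes. Here 4 member probes were higher, 8 lower and 3 did not pass, with 49.3% of all probes changed, 19.5% higher and 29.8% lower. Of the RefSeq-matched probes fitted alone, 58.5% changed. The member median was -0.63, beside -0.12 over all probes. These were -0.36 and 0.014 without DIFF replicate 2, and -0.75 and -0.27 without DIFF replicate 1. With median centring the medians were -0.46 for members and 0.05 for all probes. The split of all probes was then 7232 higher and 5832 lower, against 5915 and 9056 with the 75th percentile. The 4 higher member probes became 2 without CM replicate 2 or CM replicate 3.

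**Figure D1:**
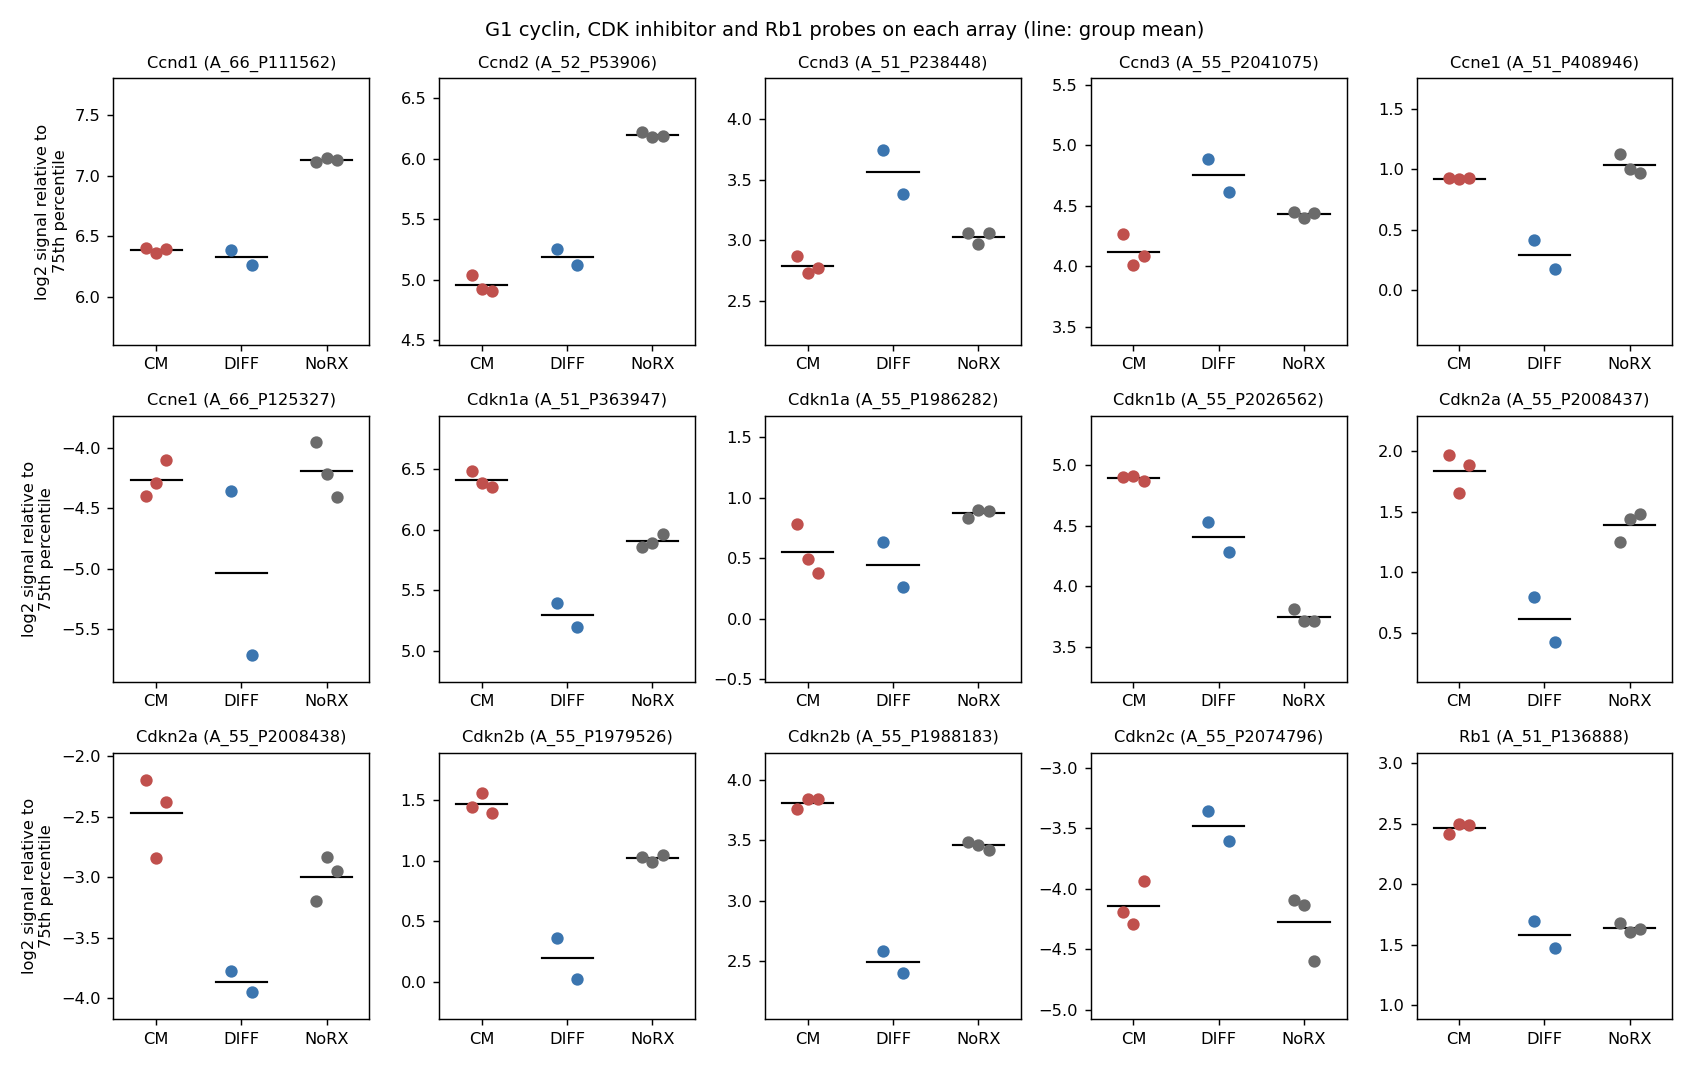
Log2 signal relative to each array's 75th percentile for the 15 member probes, 1 point per array, with CM left, DIFF in the middle and NoRX right, and lines at group means. Ccnd1 and Ccnd2 sit lower in CM and DIFF than in NoRX, and Cdkn1b sits higher in both.

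**Figure D2:**
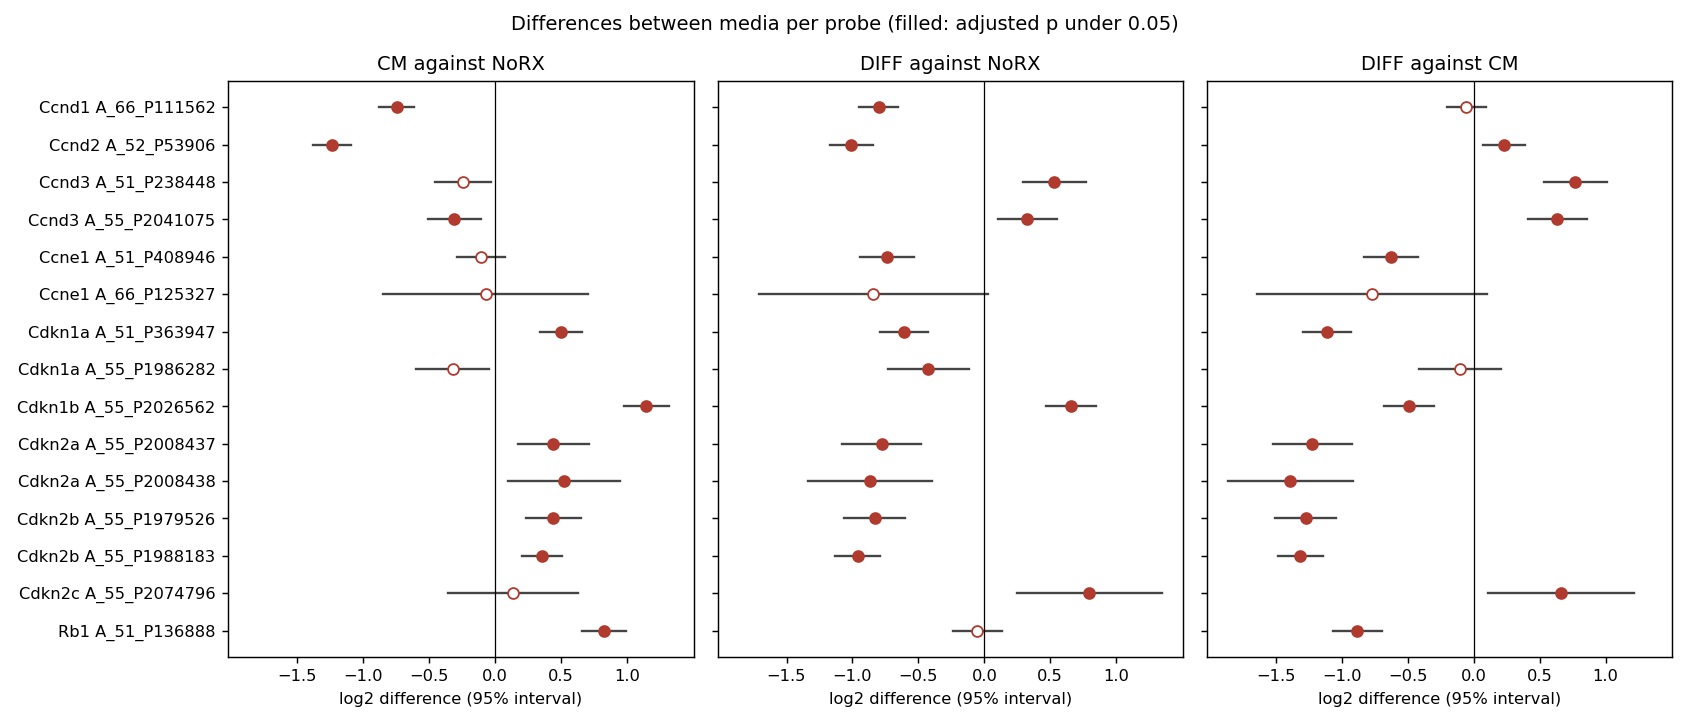
Log2 difference and its 95% interval for each member probe in the 3 comparisons, with filled points where the adjusted p was under 0.05. The longest intervals belong to the dim probes of Ccne1, Cdkn2a and Cdkn2c.

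Ccnd1, cyclin D1, had scaled intensities of 66816, 65074 and 66409 in CM, 66372 and 60820 in DIFF, and 109780, 112010 and 110640 in NoRX. Every CM and DIFF array lay below every NoRX array, while CM and DIFF overlapped. The difference was -0.75 ± 0.058 for CM against NoRX (adjusted p = 9.13e-06 by limma) and -0.80 ± 0.065 for DIFF against NoRX (adjusted p = 1.08e-05). DIFF and CM differed by -0.057, with a 95% interval of -0.20 to 0.089 (adjusted p = 0.502). Without DIFF replicate 1 that last difference was -0.12 and passed (adjusted p = 0.0307), with DIFF then a single array.

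Ccnd2, cyclin D2, had 26104, 24076 and 23773 in CM, 30169 and 27646 in DIFF, and 59114, 57316 and 57804 in NoRX. The 3 groups did not overlap, and the order from low to high was CM, DIFF, NoRX. It fell by 1.24 ± 0.064 in CM against NoRX, a 2.36-fold difference (adjusted p = 8.76e-07), and by 1.01 ± 0.072 in DIFF against NoRX (adjusted p = 4.5e-06). DIFF exceeded CM by 0.23 ± 0.072 (adjusted p = 0.0242). That small difference did not pass without CM replicate 2 (0.21) or CM replicate 3 (0.20), or within slide row 2 (0.27, adjusted p = 0.207), and normexp gave 0.11 (adjusted p = 0.472).

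Ccnd3, cyclin D3, went the other way in DIFF. Its probe A_51_P238448 had 5805, 5265 and 5402 in CM, 10626 and 8251 in DIFF, and 6614, 6208 and 6615 in NoRX. Its probe A_55_P2041075 had 15199, 12793 and 13436 in CM, 23486 and 19424 in DIFF, and 17272, 16673 and 17222 in NoRX. At both probes every DIFF array was above every other array and every CM array below every NoRX array. DIFF against CM gave 0.77 ± 0.11 (adjusted p = 2e-04) and 0.63 ± 0.099 (adjusted p = 5.13e-04) at these probes.

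Against NoRX, DIFF was higher by 0.53 ± 0.11 (adjusted p = 0.00369) and 0.32 ± 0.099 (adjusted p = 0.0318) at the 2 Ccnd3 probes. The first of these was 0.65 with the slide row as a block (adjusted p = 0.0513). CM against NoRX gave -0.24 ± 0.094 at A_51_P238448, which did not pass (adjusted p = 0.0674), and -0.31 ± 0.089 at A_55_P2041075 (adjusted p = 0.0191). At A_51_P238448 it passed with only the groups compared (-0.24, adjusted p = 0.00285) and with quantile normalization (-0.29, adjusted p = 0.0268). With the slide row as a block it was -0.16 there (adjusted p = 0.468). Calls at A_55_P2041075 against NoRX were not steady either. That of CM was lost without NoRX replicate 1 (-0.30), NoRX replicate 3 (-0.30), CM replicate 2 (-0.26) or CM replicate 3 (-0.29). With the slide row as a block this CM difference was -0.17 (adjusted p = 0.367), and that of DIFF 0.54 (adjusted p = 0.061). That of DIFF was lost when a NoRX array was left out (0.31 to 0.33), or without CM replicate 3 (0.32) or without DIFF replicate 1 (0.19).

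Ccne1, cyclin E1, had 1503, 1493 and 1505 in CM, 1054 and 894 in DIFF, and 1724, 1584 and 1552 in NoRX at probe A_51_P408946. Both DIFF arrays were below all others, and CM lay just under NoRX. DIFF differed by -0.74 ± 0.091 from NoRX (adjusted p = 1.87e-04) and by -0.63 ± 0.091 from CM (adjusted p = 2.9e-04). CM differed from NoRX by -0.11, with an interval of -0.29 to 0.073 (adjusted p = 0.318).

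The other Ccne1 probe, A_66_P125327, was dim, with 37.4, 40.5 and 46.2 in CM, 38.7 and 15.1 in DIFF, and 51.1, 42.6 and 37.4 in NoRX. The groups overlapped, and DIFF replicate 2 was not well above background. None of its differences passed (adjusted p of 0.897 in CM and 0.127 in DIFF relative to NoRX, and 0.128 in DIFF relative to CM). Without DIFF replicate 1, the DIFF differences were -1.52 from NoRX and -1.45 from CM and passed, resting then on the array that was not well above background.

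Cdkn1a encodes p21, the inhibitor known as a target of p53. Its probe A_51_P363947, printed as 10 spots on each array, had 70968, 66082 and 64534 in CM, 33208 and 29083 in DIFF, and 45976, 46931 and 49467 in NoRX. The 3 groups did not overlap, with CM high, NoRX between and DIFF low. CM was higher than NoRX by 0.50 ± 0.072 (adjusted p = 3.99e-04), DIFF lower than NoRX by a difference of -0.61 ± 0.080 (adjusted p = 3.03e-04), and DIFF lower than CM by -1.11 ± 0.080 (adjusted p = 2.72e-06). With the slide row as a block the difference of DIFF from NoRX was -0.49 and did not pass (adjusted p = 0.0589).

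The SD between the 10 spots of that probe within an array was 0.030 to 0.052. Those spots repeat 1 probe on 1 array, so they measure spot noise and not the spread between arrays. Between the arrays of a group the SD was 0.054 in NoRX, 0.071 in CM and 0.135 in DIFF. The lowest spot of any CM array was above the highest spot of any NoRX array, and the lowest NoRX spot above the highest DIFF spot.

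**Figure D3:**
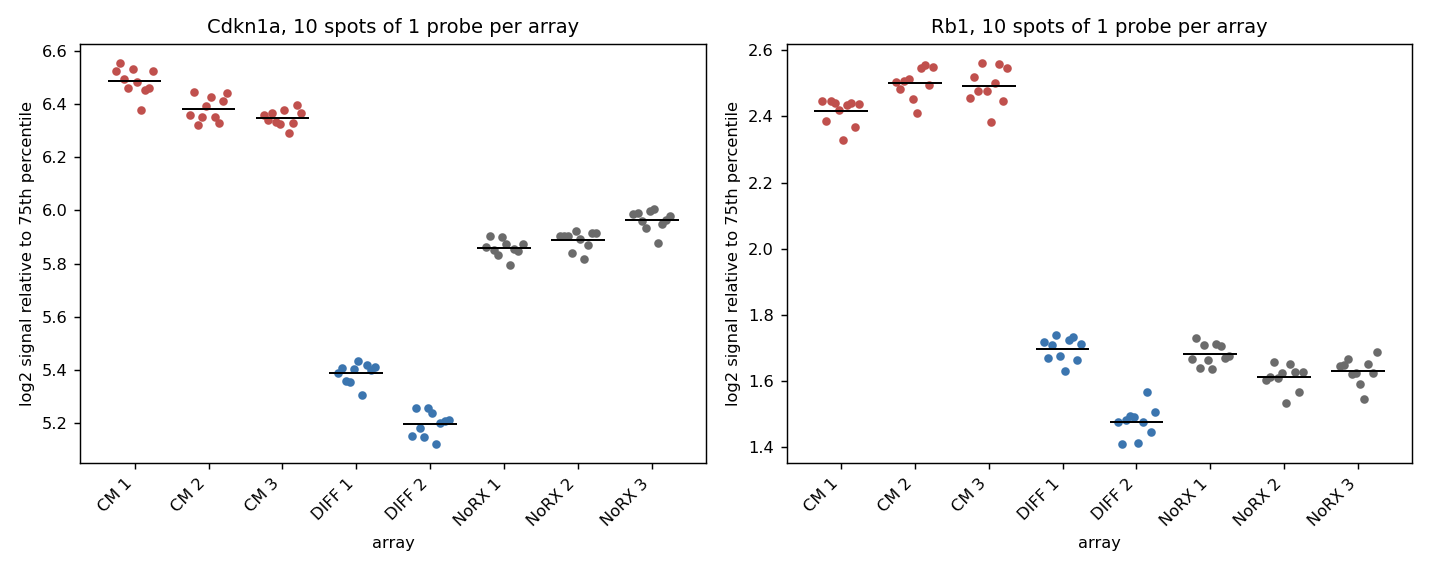
Log2 signal relative to the 75th percentile of the 10 spots of the Cdkn1a probe A_51_P363947 (left) and of the Rb1 probe (right) on each array, with a line at the array's mean. Cdkn1a spots form 3 separate bands by medium; Rb1 spots lie higher on the 3 CM arrays than on all others.

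The other Cdkn1a probe, A_55_P1986282, carries another RefSeq accession and showed another pattern. It had 1363, 1118 and 1029 in CM, 1231 and 949 in DIFF, and 1409, 1476 and 1469 in NoRX. CM and DIFF overlapped here, and both lay below NoRX. CM differed from NoRX by -0.32 ± 0.12, which did not pass (adjusted p = 0.0613), and DIFF differed from NoRX by -0.42 ± 0.14 (adjusted p = 0.0395). The first of these passed without CM replicate 1 (-0.44), DIFF replicate 1 or DIFF replicate 2 (-0.32 each), and the second was lost when a NoRX array was left out (-0.45 to -0.41), or CM replicate 2 (-0.42) or DIFF replicate 2 (-0.24). With the slide row as a block neither passed, at -0.090 for CM (adjusted p = 0.728) and -0.079 for DIFF (adjusted p = 0.859). The values of CM replicate 1, in the row of the NoRX arrays, lay nearest to NoRX. Median centring gave -0.27 for DIFF (adjusted p = 0.0822).

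The within-array difference between the 2 Cdkn1a probes was tested across media, as a test of unequal change and not of level. Relative to its NoRX mean it was 0.67, 0.85 and 0.94 on the CM arrays, -0.28 and -0.093 on the DIFF arrays, and -0.0026, -0.040 and 0.043 on the NoRX arrays. All CM arrays were above all others. It shifted by 0.82 ± 0.089 in CM against NoRX (adjusted p = 7.99e-04 over 5248 probe pairs) and by -1.01 ± 0.10 in DIFF against CM (adjusted p = 4.8e-04), and by -0.19 in DIFF against NoRX, which did not pass (adjusted p = 0.268).

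Of the 5 genes with 2 probes, Cdkn1a alone had probes that changed unequally in CM against NoRX, 1 of 5 pairs beside 29.9% of all pairs. It was also the 1 pair in DIFF against CM, beside 32% of all pairs, which became 2 pairs without DIFF replicate 1, where Ccne1 was added. In DIFF against NoRX the 1 pair was Ccnd3, with 0.21 ± 0.050 (adjusted p = 0.0439), beside 13.3% of all pairs. Leaving out a DIFF array, a NoRX array, CM replicate 2 or CM replicate 3 ended that call (0.16 to 0.25). The pairs of Cdkn2a and Cdkn2b passed in none of the comparisons (adjusted p from 0.292 to 0.718).

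**Figure D4:**
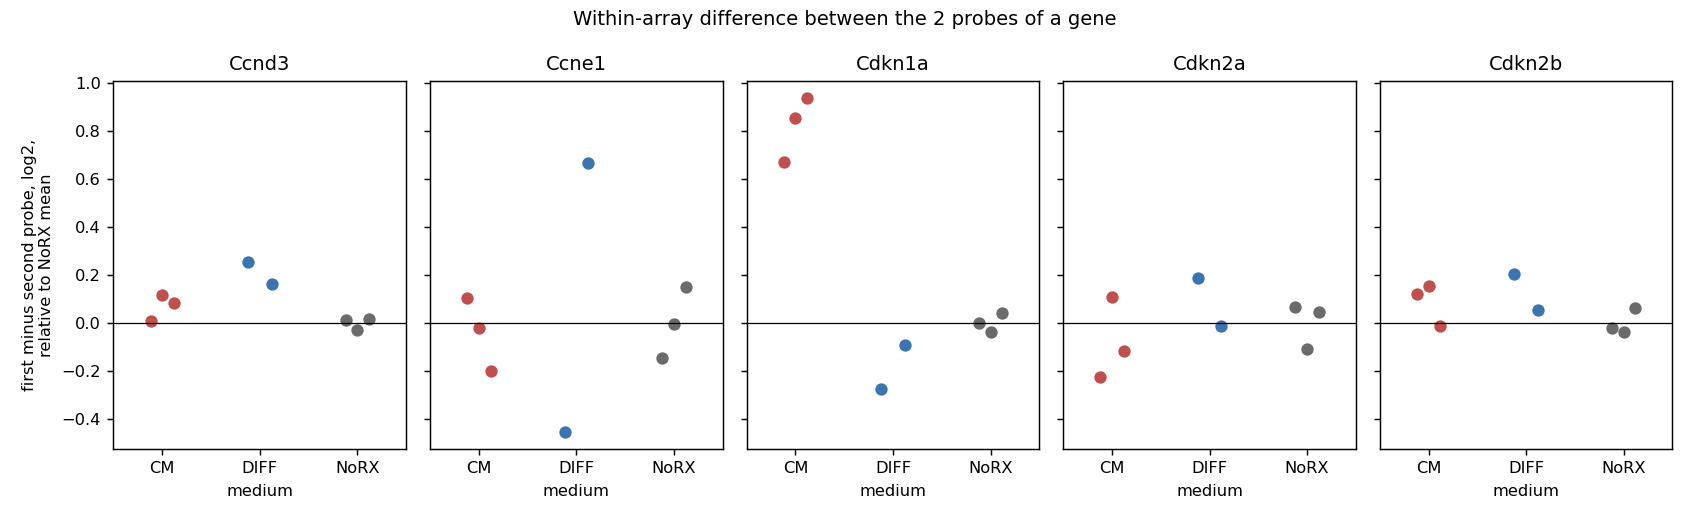
Log2 difference between the 2 probes of each gene within an array, relative to the mean of the NoRX arrays, 1 point per array. The Cdkn1a points of the 3 CM arrays, at 0.67 to 0.94, stand above those of all other arrays.

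RefSeq gives Cdkn1a 2 start sites 2790 bases apart (GRCm38.p6, plus strand). The 250 bases before each are printed because the 2 probes of this gene changed unequally; the sources used here do not say which start either probe's transcript has. Capitals mark a match to the p53 response element 51 bases before the upstream start at chr17:29090729-29090978, and GC boxes (GGGCGG) in the window of the downstream start at chr17:29093519-29093768.
Cdkn1a upstream start: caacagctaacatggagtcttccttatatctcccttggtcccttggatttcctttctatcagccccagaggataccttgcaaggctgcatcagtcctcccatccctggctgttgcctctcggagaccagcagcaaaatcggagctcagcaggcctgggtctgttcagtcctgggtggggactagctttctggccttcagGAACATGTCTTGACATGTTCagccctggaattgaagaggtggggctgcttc
Cdkn1a downstream start: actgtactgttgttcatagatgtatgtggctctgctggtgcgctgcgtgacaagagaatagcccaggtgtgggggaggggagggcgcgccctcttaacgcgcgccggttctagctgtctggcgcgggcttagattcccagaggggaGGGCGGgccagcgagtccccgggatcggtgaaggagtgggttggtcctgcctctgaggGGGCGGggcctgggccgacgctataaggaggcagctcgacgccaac
The p53 search was chosen after the sequence was seen. It took the standard response element, 2 decamers with no spacer and at most 1 mismatch in each, and found it in 0.174% of all 32851 RefSeq windows of this length. GC boxes on either strand stood in 32.7% of all windows.

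Cdkn1b encodes p27, an inhibitor known to build up in resting cells. It had 23641, 23797 and 23174 in CM, 18341 and 15364 in DIFF, and 11137, 10356 and 10400 in NoRX. The groups did not overlap: all CM arrays were high, both DIFF arrays intermediate and all NoRX arrays low. CM exceeded NoRX by 1.15 ± 0.075, a 2.22-fold difference (adjusted p = 3.31e-06), and DIFF exceeded NoRX by 0.66 ± 0.084 (adjusted p = 2.45e-04). DIFF differed from CM by -0.49 ± 0.084 (adjusted p = 9.44e-04), and by -0.32 with median centring (adjusted p = 0.049).

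Cdkn2a encodes the Ink4 inhibitor p16 and, from another promoter and reading frame, p19Arf, which acts on p53 through Mdm2. Both of its probes carry the same accession, and the sources used here do not say whether they read the p16 transcript, the p19Arf transcript or both. Probe A_55_P2008437 had 3091, 2485 and 2924 in CM, 1376 and 1061 in DIFF, and 1884, 2143 and 2211 in NoRX. The groups did not overlap, with CM high and DIFF low. CM exceeded NoRX by 0.44 ± 0.12 (adjusted p = 0.014), DIFF differed from NoRX by -0.78 ± 0.13 (adjusted p = 0.00161), and DIFF differed from CM by -1.22 ± 0.13 (adjusted p = 4.63e-05). The call of CM against NoRX was lost without NoRX replicate 1 (0.37), CM replicate 1 (0.38) or CM replicate 3 (0.42). That of DIFF against NoRX was lost with the slide row as a block (-0.58, adjusted p = 0.144) and with array weights (-0.78).

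The other Cdkn2a probe, A_55_P2008438, was dim and had 173, 111 and 152 in CM, 57.9 and 51.4 in DIFF, and 86.3, 111 and 103 in NoRX. Both DIFF arrays were low, while CM and NoRX overlapped. DIFF differed by -0.87 ± 0.21 from NoRX (adjusted p = 0.0109) and by -1.39 ± 0.21 from CM (adjusted p = 3.97e-04), but with another background correction (normexp on the median signal) by -0.067 and -0.38, neither of which passed. With the slide row as a block the difference from NoRX was -0.45 (adjusted p = 0.473), and array weights left neither call (adjusted p = 0.276 against NoRX and 0.0627 against CM). CM exceeded NoRX by 0.52 ± 0.19 (adjusted p = 0.0485), a call that did not hold when CM replicate 1, CM replicate 3 or a NoRX array was left out (0.38 to 0.60). With the row as a block this difference was 0.80 (adjusted p = 0.0443).

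Cdkn2b encodes p15, an Ink4 inhibitor known to respond to TGF-beta. Probe A_55_P1988183 had 10710, 11314 and 11343 in CM, 4759 and 4197 in DIFF, and 8879, 8730 and 8492 in NoRX. Probe A_55_P1979526 had 2157, 2338 and 2087 in CM, 1017 and 807 in DIFF, and 1623, 1576 and 1642 in NoRX. At both probes the groups did not overlap, and all CM arrays were high and both DIFF arrays low, the order also seen at the Cdkn2a probe A_55_P2008437 and the Cdkn1a probe A_51_P363947.

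At these 2 Cdkn2b probes CM exceeded NoRX by 0.35 ± 0.068 (adjusted p = 0.00218) and 0.44 ± 0.093 (adjusted p = 0.00381). DIFF differed from NoRX by -0.96 ± 0.076 (adjusted p = 8.7e-06) and -0.83 ± 0.10 (adjusted p = 2.1e-04). DIFF differed from CM by -1.32 ± 0.076, a 2.49-fold difference (adjusted p = 5.68e-07), and by -1.27 ± 0.10 (adjusted p = 5.99e-06). With the slide row as a block, CM against NoRX gave 0.30 (adjusted p = 0.0713) and 0.42 (adjusted p = 0.0628), so that neither passed. Within row 1 the sizes were the same by construction, with CM replicate 1 as the lone CM array.

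The summed signal of stellate cell and fibroblast markers was high in CM and low in DIFF, as Cdkn2a and Cdkn2b were, but its genes did not all follow that order. The sums here cover only genes that passed the filter, 7 of the 10 on that list. The summed scaled intensity was 1262 to 1499 in CM, 204 to 306 in DIFF and 574 to 601 in NoRX. Of the 10 genes, 5 to 7 were well above background in CM, 1 to 4 in DIFF and 5 to 7 in NoRX. Pdgfrb, Lum and Thy1 were well above background on none of the arrays. Of the 7 genes tested, 2 were higher (Des and Pdgfra), 1 was lower (Col1a1) and 4 did not pass in CM against NoRX, 0 were higher and 3 lower in DIFF against NoRX, and 0 were higher and 5 lower in DIFF against CM. Des made up much of the sum, with 813, 801 and 792 in CM, 169 and 113 in DIFF, and 207, 222 and 201 in NoRX. Dcn, at 274 on CM replicate 1, was 41.1 and 41.0 on the other CM arrays. Of the 8 macrophage and leukocyte markers on the array, 4 passed the filter. Their sum was 17972 to 18659 in CM, 9258 to 11227 in DIFF and 14623 to 15891 in NoRX. Of the 8, Cd68, Adgre1 and Lyz2 were well above background on none of the arrays and Ptprc only on CM replicate 3. Of 7 endothelial markers 6 passed, with a sum of 8424 to 9143 in CM, 6684 to 7890 in DIFF and 8230 to 9943 in NoRX. Tek was at background throughout. Of 5 erythroid markers only 1 passed, with 151 to 194 in CM, 518 to 586 in DIFF and 176 to 358 in NoRX. Hbb-bt, Klf1 and Alas2 were at background throughout. The part of these markers in the Cdkn2a and Cdkn2b values was not tested.

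Cdkn2a and Cdkn2b are neighbours on mouse chromosome 4. In RefSeq (GRCm38.p6, minus strand) the start of Cdkn2b lies 16413 bases from the upstream start of Cdkn2a, and the 2 starts of Cdkn2a lie 12427 bases apart. Their windows are printed because the group means of the 2 genes ran in the same order across media, with CM high and DIFF low. The order was not theirs alone: the Cdkn1a probe A_51_P363947, of a gene on chromosome 17, had it too. Capitals mark a cAMP response element (TGACGTCA) 46 bases before the Cdkn2b start, and an E2F motif (TTTCCCGC) 99 bases before the upstream Cdkn2a start together with GC boxes. The windows are chr4:89311033-89311282, chr4:89294620-89294869 and chr4:89282193-89282442.
Cdkn2b: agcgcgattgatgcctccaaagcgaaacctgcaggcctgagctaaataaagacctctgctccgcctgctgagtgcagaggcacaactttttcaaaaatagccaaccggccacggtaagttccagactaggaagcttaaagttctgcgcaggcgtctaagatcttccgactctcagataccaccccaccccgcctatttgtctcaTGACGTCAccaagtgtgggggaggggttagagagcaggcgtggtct
Cdkn2a upstream start: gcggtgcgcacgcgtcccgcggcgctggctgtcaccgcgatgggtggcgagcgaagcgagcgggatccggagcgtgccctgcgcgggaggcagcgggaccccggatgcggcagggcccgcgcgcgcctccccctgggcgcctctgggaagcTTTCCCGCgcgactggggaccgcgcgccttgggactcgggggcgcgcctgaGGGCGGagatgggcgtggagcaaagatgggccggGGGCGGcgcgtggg
Cdkn2a downstream start: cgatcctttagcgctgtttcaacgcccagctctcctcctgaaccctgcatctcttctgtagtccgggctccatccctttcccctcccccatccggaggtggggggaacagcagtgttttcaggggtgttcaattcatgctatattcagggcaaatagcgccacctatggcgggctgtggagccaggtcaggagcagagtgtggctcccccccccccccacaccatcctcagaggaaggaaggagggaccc
No capitals stand in the last of these. The windows of the 2 genes shared no motif match, and no match says only that these letters are not in the window.

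In all, 11 windows of 7 members were searched on both strands for 10 motifs. Beside the GC box and the p53 element these were the TATA box (letters TATAAA), an E-box (letters CACGTG), a FOXO motif (letters TGTTTAC), the box CCAAT and an AP-1 motif (letters TGANTCA). The others were the cAMP response element, a SMAD motif (GTCTAGAC) and E2F (TTTCCCGC, TTTCGCGC, TTTGGCGC or TTTGCCGC). GC boxes stood in 7 of the 11 windows, beside 32.7% of all, and CCAAT boxes in 2, beside 33.8%. The windows with a GC box held 59.6% to 78.4% G and C, beside a median of 52.4% over all windows. E2F, the cAMP response element, FOXO and the p53 element each stood in 1, beside 1.86%, 1.55%, 3.17% and 0.174% of all. TATA box, E-box, AP-1 and SMAD motifs stood in 0 of 11, beside 12.4%, 6.02%, 6.75% and 0.167%. The FOXO match was in the upstream window of Ccnd3. The table holds no window for Ccnd1, Ccnd2 and Rb1.

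Cdkn2c, which encodes p18, was dim throughout, with 43.4, 40.5 and 51.8 in CM, 77.4 and 65.3 in DIFF, and 46.5, 45.1 and 32.8 in NoRX. Both DIFF arrays were above all others, while CM and NoRX overlapped. DIFF exceeded NoRX by 0.80 ± 0.25 (adjusted p = 0.0328) and CM by 0.66 ± 0.25 (adjusted p = 0.0484). CM differed from NoRX by 0.13, with an interval of -0.36 to 0.63 (adjusted p = 0.668). The call against NoRX was lost without NoRX replicate 2 (0.86), NoRX replicate 3 (0.64) or DIFF replicate 1 (0.67), and that against CM without any 1 array except NoRX replicate 3 (0.54 to 0.78). Neither held with the slide row as a block (0.72, adjusted p = 0.371, and 0.63, adjusted p = 0.104).

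Rb1, the pocket protein that the cyclin D complexes act on, had 4225, 4488 and 4458 in CM, 2568 and 2201 in DIFF, and 2538, 2418 and 2451 in NoRX. Every CM array was above every other array, while DIFF and NoRX overlapped. CM exceeded NoRX by 0.83 ± 0.074, a 1.78-fold difference (adjusted p = 2.06e-05), and DIFF differed from CM by -0.88 ± 0.083 (adjusted p = 1.57e-05). DIFF differed from NoRX by -0.054, with an interval of -0.24 to 0.13 (adjusted p = 0.653). Without DIFF replicate 1 it was -0.17 and passed (adjusted p = 0.0421), with DIFF then a single array. The 10 spots of this probe had an SD of 0.032 to 0.057 within an array.

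The other genes of the pathway were read at the brightest probe of each, with calls from the fit over all probes. With only the brightest probes of all 14044 genes fitted, 52.2% changed in CM against NoRX. In DIFF, 42.1% changed against NoRX and 59.1% against CM. Of the E2F-driven S phase genes, which supply DNA replication, 20 of 21 were tested. In CM against NoRX 15 were lower and 2 higher, 3 not passing, and the list median was -0.77. In DIFF against NoRX 5 were lower, 1 was higher and 14 did not pass (median -0.047). In DIFF against CM 14 were higher, 2 lower and 4 did not pass (median 0.83). Over all probes these medians were -0.0093, -0.13 and -0.12. The DIFF arrays disagreed at Pcna, a gene of this list, with 33064 on replicate 1 and 263120 on replicate 2.

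Mcm5, a subunit of the replicative helicase, had 429, 314 and 369 in CM, 1453 and 1335 in DIFF, and 1552, 1257 and 1434 in NoRX. CM arrays were all low, and DIFF and NoRX overlapped. CM differed from NoRX by -1.94 ± 0.12 (adjusted p = 2.62e-06), and DIFF exceeded CM by 1.92 ± 0.14 (adjusted p = 2.42e-06). Rrm2, a subunit of ribonucleotide reductase, had 1497, 1115 and 1518 in CM, 4170 and 3735 in DIFF, and 2527, 2350 and 2326 in NoRX. It was lower in CM and higher in DIFF than in NoRX, by 0.72 ± 0.13 in DIFF (adjusted p = 0.00238). Tk1, thymidine kinase, ran against most of the list: it had 8913, 8251 and 8603 in CM, 4061 and 3544 in DIFF, and 6255, 6105 and 6014 in NoRX.

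Of the other G1/S machinery 23 of 25 genes were tested, with 6 higher, 5 lower and 12 not passed in CM against NoRX. In DIFF against NoRX 3 were higher, 7 lower and 13 did not pass, and in DIFF against CM 6, 11 and 6. The median was -0.14 in CM and -0.067 in DIFF relative to NoRX, and -0.16 in DIFF relative to CM. Cdk4, the partner of the D-type cyclins, had 28315, 27155 and 26988 in CM, 45012 and 37206 in DIFF, and 48438, 48509 and 48727 in NoRX, so that it was lower in CM by a difference of -0.82 ± 0.075 (adjusted p = 2.38e-05). Ccna2, cyclin A2 of S phase and mitosis, had 278, 220 and 254 in CM, 1023 and 819 in DIFF, and 514, 473 and 491 in NoRX. It was lower in CM than in NoRX by -0.98 ± 0.12 (adjusted p = 1.13e-04) and higher in DIFF by 0.89 ± 0.13 (adjusted p = 5.4e-04). Cdkn1c, the third Cip/Kip inhibitor (p57), rose by 1.54 ± 0.17 in CM against NoRX (adjusted p = 8.88e-05), with 166, 181 and 162 in CM, 49.1 and 36.6 in DIFF, and 51.9, 68.4 and 56.0 in NoRX.

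Of 20 p53 targets other than Cdkn1a, 4 were higher, 5 lower and 11 did not pass in CM against NoRX (median -0.11). In DIFF against NoRX 5 were higher and 3 lower, and in DIFF against CM 8 and 4, with medians of 0.026 and 0.047. The DIFF arrays disagreed at Fas, a gene of this list, with 540 on replicate 1 and 2175 on replicate 2. Plk3, a stress kinase, had 3868, 3942 and 3846 in CM, 1461 and 1112 in DIFF, and 1200, 1262 and 1206 in NoRX, and was higher in CM than in NoRX by 1.67 ± 0.096 (adjusted p = 1.55e-06). Trp53inp1, a stress-induced p53 partner, had 7473, 8059 and 7754 in CM, 34344 and 27586 in DIFF, and 9614, 9930 and 10265 in NoRX, and was higher in DIFF than in NoRX by 1.63 ± 0.094 (adjusted p = 1.07e-06).

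Of 16 TGF-beta targets other than Cdkn2b, 7 were higher, 5 lower and 4 did not pass in CM against NoRX (median 0.092). In DIFF against NoRX 2 were higher and 9 lower, and in DIFF against CM 4 and 11, with medians of -0.55 in both. Smad7, the feedback inhibitor of that pathway, had 4133, 4323 and 4859 in CM, 1861 and 1646 in DIFF, and 4572, 4609 and 4285 in NoRX, and fell by 1.36 ± 0.092 in DIFF against NoRX (adjusted p = 3.18e-06). Pmepa1, another feedback inhibitor, had 8828, 8362 and 9341 in CM, 7773 and 6733 in DIFF, and 17281, 18146 and 17469 in NoRX, and was lower than in NoRX in both. Col1a1, collagen type I, was well above background on neither DIFF array and at least 5.55-fold lower there than in NoRX (adjusted p = 6.08e-07). Tgfbi went the other way: it was well above background only on the DIFF arrays, with 102 and 70.1.

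Of the inducers and repressors of the member genes 22 of 24 were tested, with 2 higher, 9 lower and 11 not passed in CM against NoRX. In DIFF against NoRX 4 were higher and 10 lower, and in DIFF against CM 9 and 9. The median was -0.18 in CM and -0.23 in DIFF relative to NoRX, and -0.26 in DIFF relative to CM. Mycn, a Myc family activator of D-type cyclins, was well above background on none of the CM arrays and at least 6.74-fold lower there than in NoRX (adjusted p = 2.73e-06). This fold sets the NoRX mean against the lowest signal well above background on the CM arrays. Jun, an AP-1 subunit known to act on Ccnd1, had 22779, 22506 and 20899 in CM, 10779 and 8287 in DIFF, and 30342, 30512 and 28887 in NoRX, and fell by 1.66 ± 0.10 in DIFF against NoRX (adjusted p = 1.93e-06). Fosl1, another AP-1 subunit, was higher in CM than in NoRX by 1.19 ± 0.080 (adjusted p = 3.96e-06) and lower in DIFF than in NoRX by -1.35 ± 0.090 (adjusted p = 2.83e-06).

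**Figure D5:**
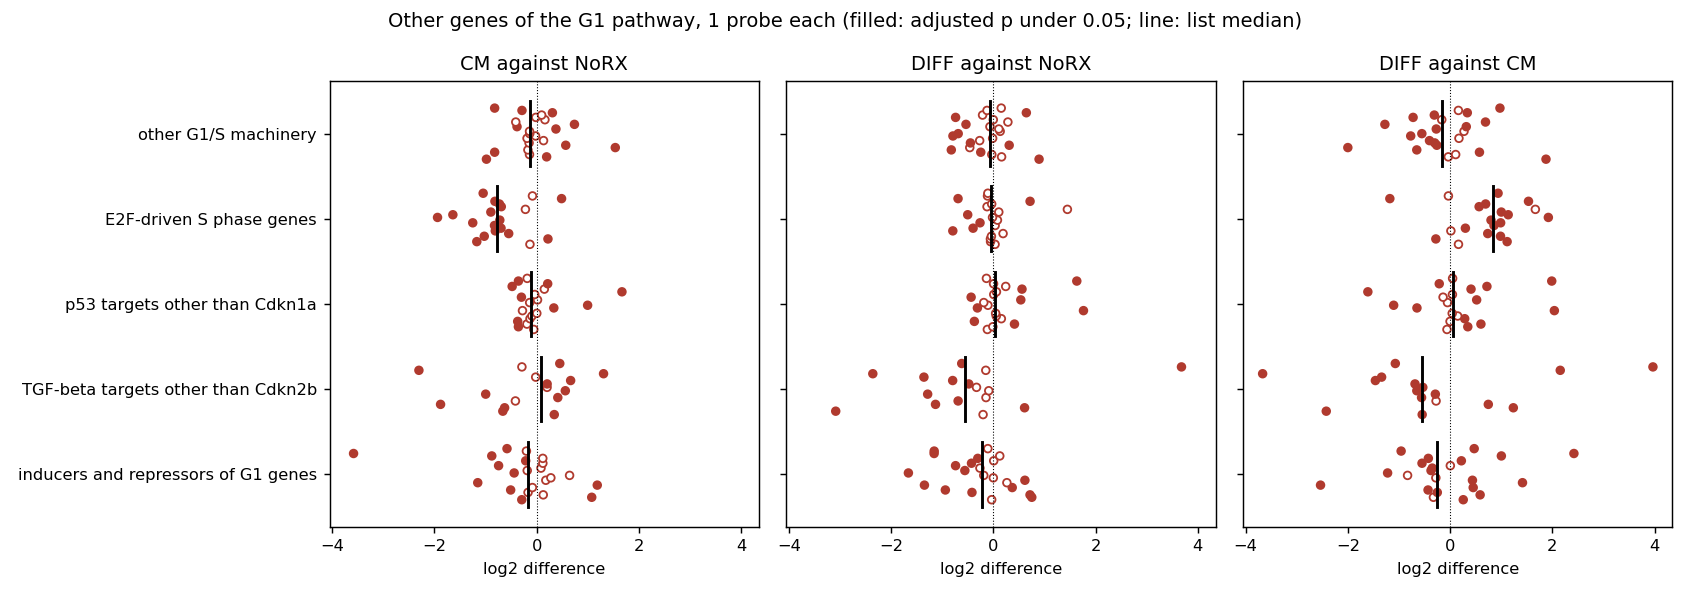
Log2 differences of the genes of 5 pathway lists in the 3 comparisons, 1 point per gene at its brightest probe, filled where the adjusted p was under 0.05, with a line at the list median. The E2F-driven S phase genes have their median at -0.77 in CM against NoRX and at -0.047 in DIFF against NoRX.

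For each member probe the most similar gene on the array was found by Pearson correlation over the 8 arrays among 18344 candidate probes, as a description. These arrays form 3 groups of like arrays, so high values are common. The closest genes were Krba1 for Ccnd1 (r = 0.999), Celf2 for Ccnd2 (0.996), Tpgs2 and Zfyve27 for the Ccnd3 probes (0.995 and 0.991) and Slf1 for the Ccne1 probe A_51_P408946 (0.999). Among the inhibitors they were Plekhg6 and Ccdc167 for the Cdkn1a probes (0.998 and 0.991), Nupr1l for Cdkn1b (0.996), Angptl4 and Mok for the Cdkn2a probes (0.994 and 0.981) and Me1 and Thap4 for the Cdkn2b probes (both 0.999). For Rb1 it was Ppp1r13b (0.999).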

How the data were processed

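Per the labels' protocols, Cy3-labelled cRNA from total RNA was hybridised to Agilent SurePrint G3 arrays, and the submitters' processing notes name Agilent Feature Extraction 11.0.1.1. The deposited values are spot intensities (processed signal, linear, background subtracted, per the file headers), beside spot flags that the authors' software gave per the file headers (well above background, outlier, uneven background). The series table held the same intensity values (largest difference 0).

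From these, log2 processed signal minus each array's 75th percentile was computed. Control and outlier spots were left out, spots of 1 probe were averaged, and probes well above background on fewer than 2 of the 8 arrays were dropped, which left 30357 probes with 116 missing values. Accessions of 27235 probes matched a RefSeq table of GRCm38.p6. The array was designed on another build, per the file headers, so no probe positions are given. Promoter windows are those of RefSeq on GRCm38.p6. Scaled intensity is the relative value brought back to the mean 75th percentile of the 8 arrays.

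limma 3.58.1 in R 4.3.3 (lmFit, eBayes with trend, two-sided, Benjamini-Hochberg) fitted all 8 arrays at once, and likewise the within-array differences of 5248 probe pairs of 1 gene. Each fit took 1 spread for all groups, although the DIFF arrays varied more. With only the groups compared, 55% of all probes changed in CM against NoRX, 24.5% in DIFF against NoRX and 41.7% in DIFF against CM. With all arrays in the fit these shares were 42.3%, 32.8% and 49.3%. Means and differences rest on 3 CM, 2 DIFF and 3 NoRX arrays, and the number of arrays limits the precision. Tested on simulated data, the fit recovered fewer of the planted 2-fold changes than the level first set. That level was then asked only of larger ones. Most member differences were smaller than 2-fold, so a difference that did not pass does not show that nothing changed. Figures used matplotlib 3.10.9. A group with no array well above background has only a bound: its fold is taken against the lowest signal well above background, or its own signal if higher.

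The members, the 5 pathway lists and the 5 marker lists were chosen with earlier results of these data known. Named beside the members are up to 4 genes per list and comparison with the largest difference among those that passed, of which some are given, and the most similar gene of a member probe, with some results not reported here. Smad7, Jun and Fosl1 are among them, and so are Pmepa1 and Col1a1. Replicate numbers did not pair CM and NoRX arrays: correlations of their deviations were -0.034, -0.011 and -0.049. For DIFF and NoRX they were -0.010 and -0.024, and for DIFF and CM 0.109 and 0.197, from 2 numbers that the labels do not tie to a shared culture. Alternatives covered background correction, scaling, filter, array weights, slide row, replicate block, the arrays in the fit and leaving out each array.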

Additional observations from a re-analysis of the deposited data

How the results depend on the processing

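The member calls below held under every alternative run: Ccnd1 and Ccnd2 lower and Cdkn1b higher in CM and in DIFF against NoRX; Ccnd3 (both probes) higher and Cdkn1b and the Cdkn2a probe A_55_P2008437 lower in DIFF against CM; Rb1 and the Cdkn1a probe A_51_P363947 higher in CM against NoRX and lower in DIFF against CM; Cdkn2b (both probes) and the Ccne1 probe A_51_P408946 lower in DIFF against NoRX and CM. The other member calls were each lost under at least 1 alternative. The cause was not tested. Dim probes (Ccne1 A_66_P125327, Cdkn2a A_55_P2008438, Cdkn2c) lie near background.

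Member probes lower in CM against NoRX numbered 5, against 3, with only probes well above background on all arrays, with array weights, with only the groups compared and with the DIFF arrays averaged. Member probes higher in DIFF against NoRX numbered 2, against 4, without a filter, with array weights and with only the groups compared, and 1 with the slide row as a block, where 5 were lower, against 9. Member probes higher in DIFF against CM numbered 2, against 4, with array weights, with only the groups compared, within row 2 (chosen after seeing the data) and with the replicate number as a block.

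Among all probes, the slide row as a block gave 3975 higher and 3759 lower in CM against NoRX, and 1291 higher and 2534 lower in DIFF against NoRX. Array weights gave 1424 higher and 3398 lower in DIFF against NoRX, and 3631 higher and 5842 lower in DIFF against CM. Median centring gave 3611 lower in DIFF against NoRX and 5832 lower in DIFF against CM.

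Leaving out 1 array at a time gave 5 to 7 member probes higher and 2 to 5 lower in CM against NoRX, 2 to 4 higher and 8 to 11 lower in DIFF against NoRX, and 2 to 4 higher and 8 to 10 lower in DIFF against CM. Among all probes it gave 5020 to 8125 higher and 5166 to 8612 lower in CM against NoRX, 2290 to 5765 and 5360 to 12275 in DIFF against NoRX, and 5029 to 8431 and 7627 to 12609 in DIFF against CM. Member pairs that changed unequally numbered 1 in CM against NoRX, 0 to 1 in DIFF against NoRX and 1 to 2 in DIFF against CM.

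For DIFF against NoRX, 0 member pairs changed unequally with quantile normalization, array weights or the replicate block, and 2 with normexp on the median signal, as in DIFF against CM. Normexp, run on the median signal after seeing that the files hold no mean signal, turned the Ccne1 pair to -0.92 (adjusted p = 0.0335) in DIFF against NoRX and -0.97 (adjusted p = 0.0114) in DIFF against CM, and Cdk6 in DIFF against CM to 0.015 (adjusted p = 0.936). The replicate block gave 6 higher and 3 lower member probes in CM against NoRX, and the numbers of the arrays are not known to pair them.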
